A study of Mus musculus with 21 samples.

Results

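Livers of mice that had lost Ezh2 in hepatocytes, with Ezh1 kept, were compared with wild-type livers at 2 months of age, by bulk RNA-seq. The E2KO group carried Ezh2fl/flAlb-Cre, in which the albumin promoter drives the Cre recombinase in hepatocytes, while liver cells that never had Cre keep Ezh2. The WT group carried the floxed Ezh2fl/fl allele and no Cre, so a difference between them holds both the loss of Ezh2 and the presence of Cre. Both were on a mixed 129SV::FVB/N::C57BL/6 background. Columns set beside the pair were E1KO (Ezh1-/-, lacking Ezh1 in every cell, with no floxed Ezh2 allele in its label) and DKO (Ezh1-/-Ezh2fl/flAlb-Cre) at 2 months. E2KO and WT were also taken at 8 months of age and, after CCl4, at 3 months of age. CCl4 is carbon tetrachloride, a liver toxin, which was injected at 2 ml/kg. Each group has 1 FPKM value per gene (fragments per kilobase of gene, scaled to the mapped fragments). The sample titles name 3 replicates for each 2-month and CCl4 group and 2 for each 8-month group. Their single values are not used here, so no value carries an error. No difference within the pair thus has a replicate check or a p-value.

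The comparison covered the genes of 1 FPKM or more in at least 1 of the 2 columns, which were 10122 of 22520 genes, or 44.9%. The difference was taken as E2KO minus WT on the log2(FPKM+1) scale, which understates the change of low genes. A gene was counted as higher or lower at a difference of 1 or more, close to 2-fold at high levels. Just inside the filter, 1700030C10Rik had 1.00 FPKM in E2KO and 0.75 FPKM in WT, and Accs had 1.00 FPKM in E2KO and 0.88 FPKM in WT. Just outside it, Abl2 had 0.78 FPKM in E2KO and 0.99 FPKM in WT, and Adrbk2 had 0.42 FPKM in E2KO and 0.99 FPKM in WT.

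PRC2, a Polycomb complex, places the repressive histone mark H3K27me3 through either Ezh2 or Ezh1 as its enzyme. Ezh2 is the form of dividing cells, while Ezh1 is kept in quiescent cells such as adult hepatocytes. PRC2 is known for silencing developmental regulators such as the Hox genes. The liver also makes most of the plasma proteins, among them the acute phase proteins that hepatocytes release under interleukin 6 and interleukin 1, and the metallothioneins, small proteins that bind zinc and copper.

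Ezh2 RNA was 0.84 FPKM in E2KO, 0.80 FPKM in E1KO, 0.74 FPKM in DKO and 1.11 FPKM in WT. The E2KO value was 75.7% of WT, and E1KO, which has no deletion of Ezh2, was at 72.1%. At this level the RNA of whole liver does not check the E2KO label, and a value for the whole gene also counts exons outside the deleted part and RNA of cells that keep Ezh2. Ezh1 was 2.5 FPKM in E2KO and 2.38 FPKM in WT, against 0.07 FPKM in both E1KO and DKO, as low as the genotypes given for those 2 columns call for. The other measured PRC2 subunits differed little. Suz12, the scaffold of the complex, had 6.99 FPKM in E2KO and 7.61 FPKM in WT, and Eed, which binds the mark, had 5.98 FPKM in E2KO and 6.34 FPKM in WT. None of 11 PRC2 subunits and none of 17 PRC1 subunits that were compared differed by 1 or more, and their median differences were -0.11 and -0.07.

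Few genes stood apart between the 2 columns, and more of them were lower than higher in E2KO. Of the 10122 genes, 54 were higher in E2KO (0.533%) and 100 were lower (0.988%), together 154 (1.52%). The median absolute difference was 0.15, and 90% of genes differed by less than 0.41. Over the same genes, the same rule counted 236 genes in E1KO against WT (2.33%, with 0.978% higher and 1.35% lower), 321 in DKO against WT (3.17%, with 1.43% higher and 1.74% lower) and 245 in E2KO against E1KO (2.42%, with 1.33% higher and 1.09% lower). Since E2KO, E1KO and DKO were each set against the same WT column, a WT value that is high or low by itself enters all 3 differences.

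**Figure D1:**
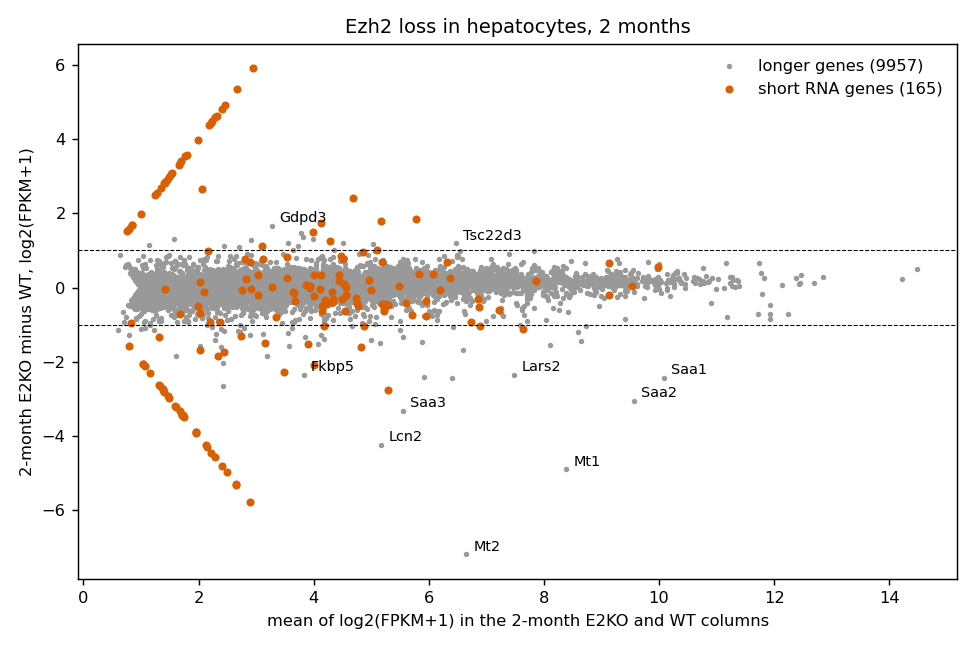
Each point is 1 of the 10122 genes compared, with the mean of log2(FPKM+1) over the 2-month E2KO and WT columns on the x axis and E2KO minus WT on the y axis. Dashed lines mark differences of 1 and -1, orange points are the 165 short RNA genes, many of them listed at 0 in a column and so on the 2 slanted lines, and the lowest of the 9957 longer genes are Mt2 at -7.19 and Mt1 at -4.89.

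Most of the genes past the threshold were genes of short RNAs. These were microRNA, snoRNA and similar genes or genes of 300 bases or less in RefSeq, a class drawn up after the values were seen. They made up 165 of the 10122 genes compared (1.63%) and 85 of the 154 called (55.2%), with 49 microRNA and 28 snoRNA genes among the 85. Of the short RNA genes compared, 51.5% were called in E2KO against WT, 50.3% in E1KO against WT, 41.8% at 8 months and 32.1% after CCl4. In 62 of the 85 the gene was listed at 0 in the E2KO or the WT column, against none of the called longer genes. The libraries are labelled mRNA-seq and were not small-RNA libraries, so a value at a microRNA gene counts fragments over its locus and is no measure of the mature microRNA. Their RefSeq lengths ran from 53 to 275 bases with a median of 83, and the mature sequences of 2 of them, 1 higher and 1 lower in E2KO, are shown with the seed (bases 2 to 8) in capitals, from RefSeq, GRCm38.p6, to show how small these targets are.
mmu-miR-126a-3p: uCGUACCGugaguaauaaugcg
mmu-miR-671-5p: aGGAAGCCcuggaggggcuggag
Mir126, the endothelial microRNA, whose RefSeq hairpin of 73 bases is on chromosome 2, had 10.98 FPKM in E2KO and was listed at 0 in WT, in E1KO, in DKO and in the other 8 columns. Mir671, whose hairpin of 98 bases is on chromosome 5, was listed at 0 in E2KO and had 10.55 FPKM in E1KO, 3.58 FPKM in DKO and 30.42 FPKM in WT. Among the other short RNA genes the widest swings were Snord42b, with 59.0 FPKM in E2KO and 0 in WT, and Mir2137, listed at 0 in E2KO and at 54.12 FPKM in WT. Mir3112 was the single gene of the whole table that was past the threshold in the same direction in E2KO at 2 months, at 8 months and after CCl4, with 7.45 FPKM in E2KO and 0 in WT at 2 months, 81.02 FPKM in E2KO and 34.06 FPKM in WT at 8 months, and 13.58 FPKM in E2KO and 0 in WT after CCl4. These genes hold the largest positive differences and are left out of what follows, where genes are called longer genes.

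Among the 9957 longer genes, 16 were higher in E2KO than in WT (0.161%) and 53 were lower (0.532%). Of the 69, 27 (39.1%) were also past the threshold in the same direction in E1KO against WT (6 higher and 21 lower), which is 17.6% of the 153 longer genes that E1KO against WT counts. Another count, 23 of 69 (8 higher and 15 lower), differed by 1 or more in the same direction from E1KO too, and 4 of these met both conditions. The remaining 23 were neither (2 higher and 21 lower): their E1KO value lay less than 1 from both E2KO and WT. Over all genes, short RNA genes included, 77 of 154 calls were shared with E1KO, which is 50% of the E2KO calls and 32.6% of the E1KO calls, and 60 stood apart from E1KO.

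The WT column of 2 months was the extreme one for most of the lower genes. In 44 of the 53 lower longer genes, E2KO, E1KO and DKO were all below WT, a pattern that 29.4% of all longer genes compared show. In 39 of the 53 the 2-month WT value was the highest of the 8 untreated columns, and the share of all longer genes with this pattern was not counted. In 36 of the 53 it was at least 1 above the 8-month WT value, and the 2-month and 8-month E2KO values lay within 1 of each other in 37 of the 53. Over all longer genes compared, 98.0% of E2KO values and 96.2% of WT values lay within 1 between these ages. For the higher genes, WT was below E2KO, E1KO and DKO in 9 of 16, a pattern that 22.3% of all longer genes compared show. The genes were chosen for their distance from this WT value, so these counts describe them and test nothing.

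**Figure D2:**
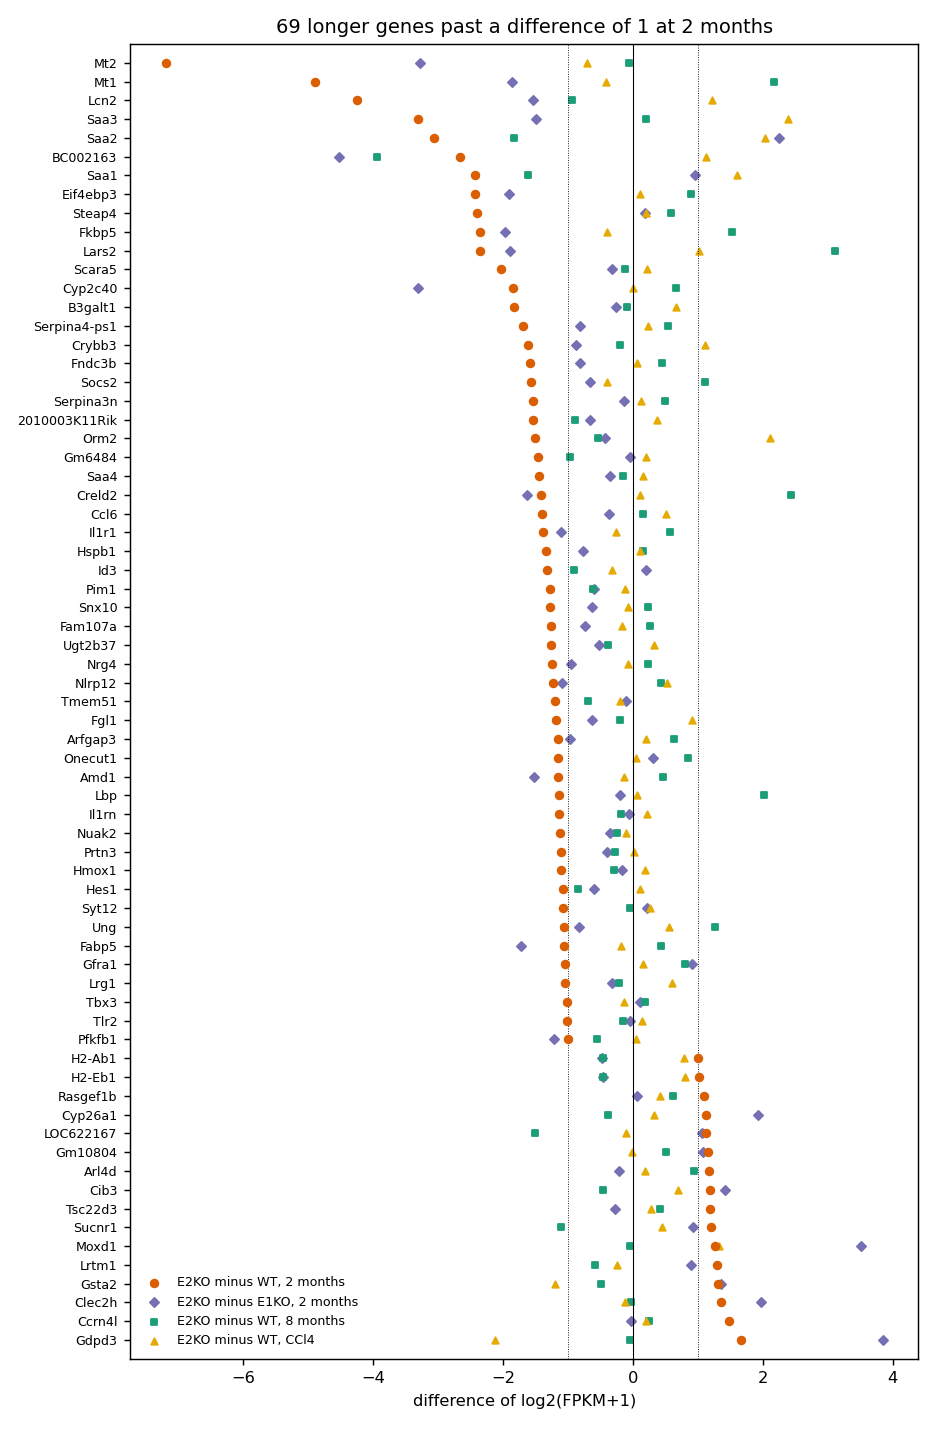
The 69 longer genes past a difference of 1 at 2 months, ordered from the lowest to the highest E2KO minus WT, with the difference of log2(FPKM+1) on the x axis. Circles are E2KO minus WT and diamonds E2KO minus E1KO at 2 months, squares are E2KO minus WT at 8 months and triangles the same after CCl4; the 8-month and CCl4 points of most genes lie between -1 and 1.

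Metallothioneins gave the widest gap of any longer gene. Mt2 had 7.29 FPKM in E2KO, 79.89 FPKM in E1KO, 68.54 FPKM in DKO and 1211.62 FPKM in WT, a difference of -7.19 and a ratio of 0.00602. Mt1 had 60.37 FPKM in E2KO, 221.74 FPKM in E1KO, 281.29 FPKM in DKO and 1824.73 FPKM in WT, a difference of -4.89. For both genes WT was the highest and E2KO the lowest of the 4 columns. E2KO was also below E1KO, by 3.29 for Mt2 and by 1.86 for Mt1. At 8 months Mt2 had 6.02 FPKM in E2KO and 6.31 FPKM in WT, and Mt1 had 71.34 FPKM in E2KO and 15.06 FPKM in WT, so the high WT level of 2 months was not there and Mt1 stood 2.17 higher in E2KO. After CCl4, Mt2 had 130.3 FPKM in E2KO and 214.64 FPKM in WT, and Mt1 had 221.85 FPKM in E2KO and 296.36 FPKM in WT. The other genes of zinc handling differed by less than 1. Slc39a14, a zinc importer of the acute phase response, had 30.1 FPKM in E2KO and 52.48 FPKM in WT, while Mtf1, the zinc sensor that switches metallothioneins on, had 1.85 FPKM in E2KO and 1.88 FPKM in WT. Mtf1 is known to act through metal response elements in the promoters of both genes, and the 250 bases before each start are shown with matches to the core TGCNCNC, on either strand, in capitals (RefSeq, GRCm38.p6; Mt1 at chr8:94178839-94179088, plus strand; Mt2 at chr8:94172368-94172617, plus strand).
Mt1: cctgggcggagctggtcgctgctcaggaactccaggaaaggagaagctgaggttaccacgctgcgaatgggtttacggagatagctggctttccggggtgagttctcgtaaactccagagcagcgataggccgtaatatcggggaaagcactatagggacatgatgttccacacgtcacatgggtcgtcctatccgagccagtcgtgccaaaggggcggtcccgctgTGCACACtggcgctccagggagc
Mt2: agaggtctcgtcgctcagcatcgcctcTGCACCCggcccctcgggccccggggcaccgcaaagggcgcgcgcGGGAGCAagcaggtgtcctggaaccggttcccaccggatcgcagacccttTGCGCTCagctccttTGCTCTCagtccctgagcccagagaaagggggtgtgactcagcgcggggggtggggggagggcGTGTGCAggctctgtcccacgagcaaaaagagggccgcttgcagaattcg
The window held 5 matches for Mt2 and 1 for Mt1. Each window is set by the start that RefSeq gives, and elements outside it were not counted. The counts are thus not those of the whole promoter and do not compare the 2 genes. Of all 27025 promoters in the RefSeq table, 43.8% hold at least 1 match, so a match by itself marks no gene out.

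Acute phase genes were lower in E2KO as a group. Of 34 compared, 11 were lower by 1 or more, where 0.988% of all genes compared and 0.532% of the longer genes were. None was higher by 1 or more, and 31 of 34 lay below 0. The median difference was -0.71, beside 0.01 over all genes compared. In E1KO against the same WT column 10 of 34 were lower and the median was -0.62. Of the 11 lower in E2KO, 9 were also lower by 1 or more in E1KO, and both differences use the same WT value. In DKO against the WT column 13 were lower and the median was -0.89. For E2KO minus E1KO the median was -0.18, with 4 members lower and 1 higher.

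Lcn2, a siderophore-binding protein, had 7.28 FPKM in E2KO, 23.2 FPKM in E1KO, 30.28 FPKM in DKO and 155.73 FPKM in WT. Saa3, a serum amyloid of macrophages and other cells, had 13.87 FPKM in E2KO, 41.0 FPKM in E1KO, 20.81 FPKM in DKO and 146.88 FPKM in WT. For these 2 genes E2KO was the lowest of the 4 columns and stood more than 1 below E1KO. Saa1, a serum amyloid of hepatocytes, had 465.81 FPKM in E2KO, 239.88 FPKM in E1KO, 318.48 FPKM in DKO and 2517.31 FPKM in WT. Saa2, its near twin, had 260.45 FPKM in E2KO, 54.34 FPKM in E1KO, 80.2 FPKM in DKO and 2175.1 FPKM in WT. For these, E2KO lay between the E1KO and WT values, and for Saa2 it was 2.24 above E1KO. The 250 bases before their starts were 95.6% identical over 249 aligned bases, and the genes themselves are near copies, so fragments may have been split between them. They are shown with the match to TTGCNNAA, a core of the motif of C/EBP factors, in capitals (RefSeq, GRCm38.p6; Saa1 at chr7:46742981-46743230, minus strand; Saa2 at chr7:46751583-46751832, plus strand), since both genes were lower and C/EBP factors are known regulators of serum amyloid genes.
Saa1: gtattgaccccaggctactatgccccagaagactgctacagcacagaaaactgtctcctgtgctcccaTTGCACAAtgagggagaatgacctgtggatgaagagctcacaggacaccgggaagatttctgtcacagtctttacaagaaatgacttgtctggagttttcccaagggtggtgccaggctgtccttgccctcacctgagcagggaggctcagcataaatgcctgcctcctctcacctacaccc
Saa2: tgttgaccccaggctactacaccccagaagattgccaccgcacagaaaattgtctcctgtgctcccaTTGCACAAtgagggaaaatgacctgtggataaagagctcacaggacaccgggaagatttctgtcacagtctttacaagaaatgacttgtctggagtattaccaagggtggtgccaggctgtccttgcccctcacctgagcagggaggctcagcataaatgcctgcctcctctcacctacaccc
Each window held 1 match on either strand, as do 9.55% of all promoters in the table; neither held TTCNNNGAA, the STAT core, which 7.18% of promoters hold. The motif was chosen after the values were seen.

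The other acute phase genes past the threshold were Steap4, a metalloreductase (25.15 FPKM in E2KO and 137.12 FPKM in WT), Serpina3n, a protease inhibitor (160.34 FPKM in E2KO and 467.31 FPKM in WT), Orm2, a carrier glycoprotein (20.02 FPKM in E2KO and 58.76 FPKM in WT), Saa4 (240.57 FPKM in E2KO and 655.2 FPKM in WT), Lbp, the lipopolysaccharide-binding protein (29.42 FPKM in E2KO and 66.06 FPKM in WT), Il1rn, the interleukin 1 receptor antagonist (0.57 FPKM in E2KO and 2.46 FPKM in WT), and Lrg1 (295.66 FPKM in E2KO and 609.98 FPKM in WT). Of these, Steap4, Serpina3n, Orm2, Saa4 and Il1rn were also lower by 1 or more in E1KO than in WT. Steap4 had 22.13 FPKM in E1KO and 19.9 FPKM in DKO. Orm2 had 27.29 FPKM in E1KO but 114.8 FPKM in DKO, above WT. The fibrinogen chains fell short of the threshold, with Fga at 1747.43 FPKM in E2KO and 3042.84 FPKM in WT, and so did haptoglobin, Hp, with 2903.28 FPKM in E2KO and 5229.25 FPKM in WT. Cebpb and Cebpd, which encode C/EBP factors, were on the other side, at 64.62 FPKM in E2KO and 46.29 FPKM in WT for Cebpb. Il1r1, the receptor of interleukin 1, was lower too, with 10.21 FPKM in E2KO, 23.08 FPKM in E1KO, 9.85 FPKM in DKO and 28.35 FPKM in WT. Of the 34, 5 were higher by 1 or more after CCl4 in E2KO than in WT and none was lower, with a median of 0.25; at 8 months 2 were higher and 3 lower, with a median of 0.12.

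**Figure D3:**
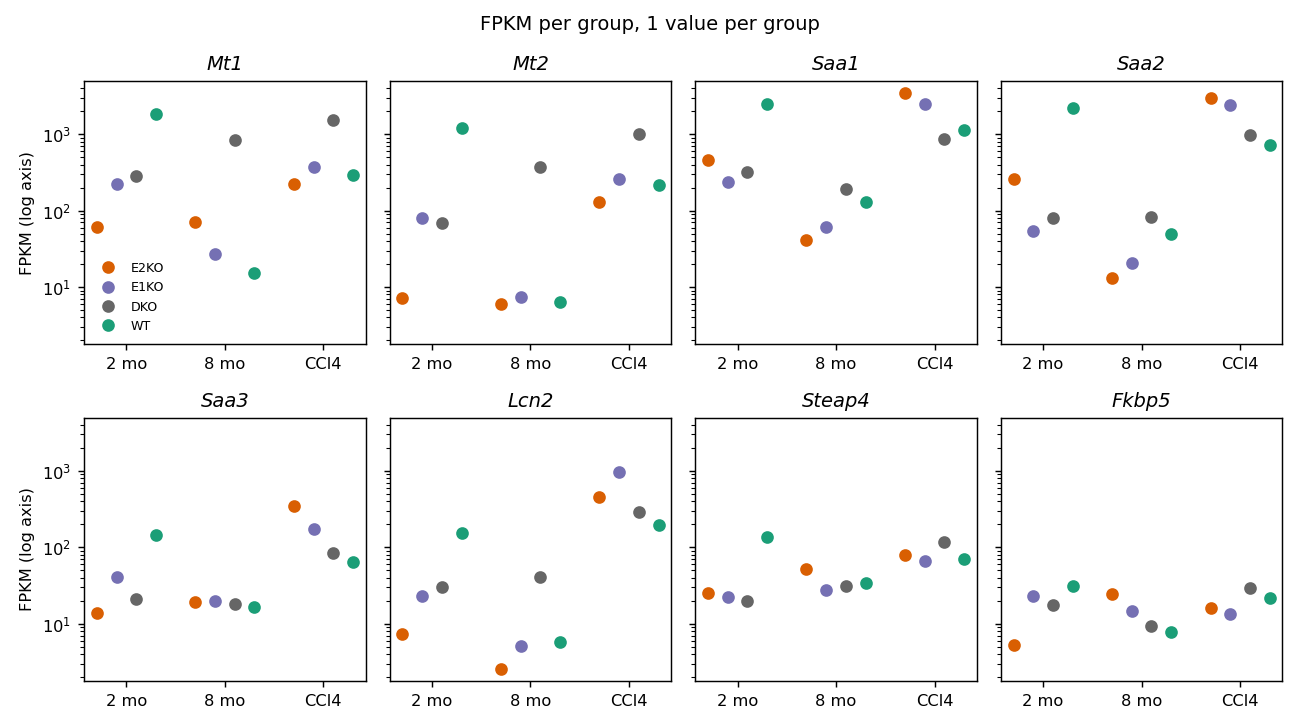
FPKM on a log axis in each of the 12 groups, 1 value per group, for 8 genes that were lower in 2-month E2KO than in WT; within each condition the order is E2KO, E1KO, DKO, WT. At 2 months WT is the highest point for all 8, and after CCl4 E2KO lies above WT for Saa1, Saa2, Saa3, Lcn2 and Steap4.

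**Figure D4:**
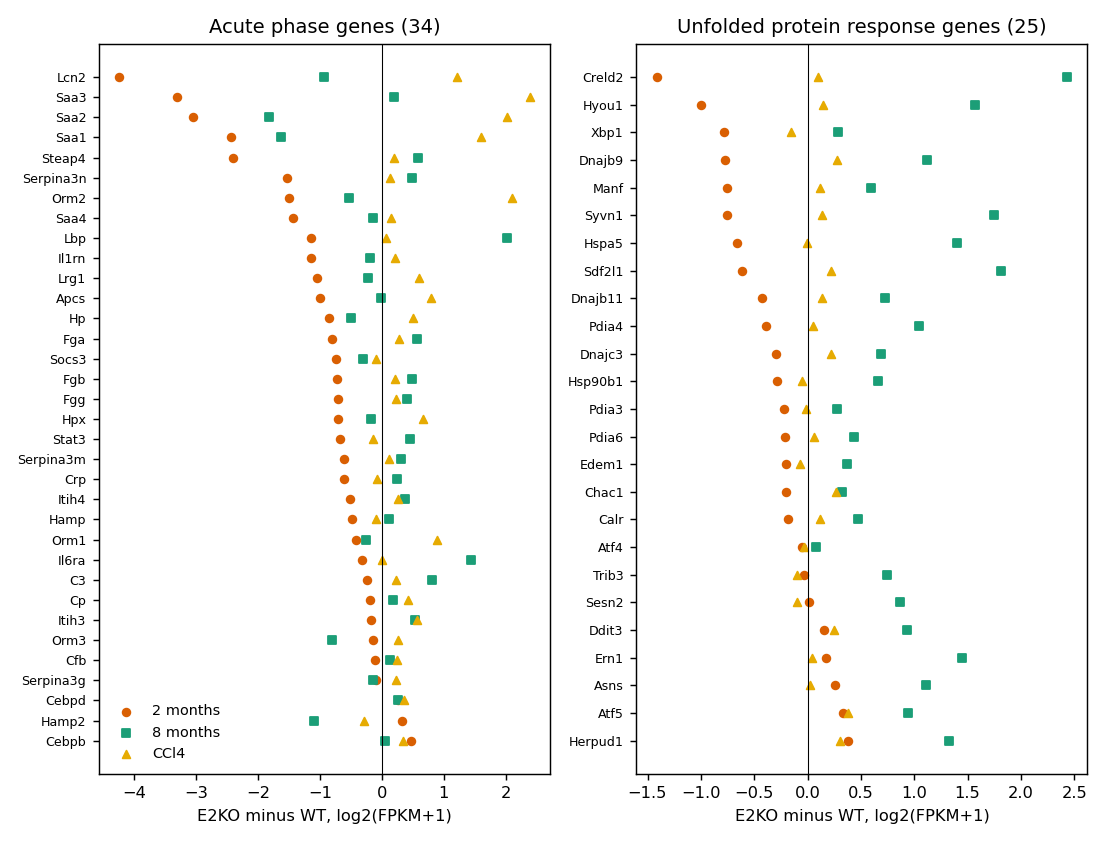
E2KO minus WT on the log2(FPKM+1) scale for the 34 acute phase genes and the 25 unfolded protein response genes compared, at 2 months (circles), 8 months (squares) and after CCl4 (triangles), ordered by the 2-month value. At 2 months 31 of 34 acute phase genes lie below 0, and at 8 months all 25 unfolded protein response genes lie above 0.

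Genes of the unfolded protein response, which helps the endoplasmic reticulum fold secreted proteins, were mostly a little lower in E2KO. Of 25 compared, 19 lay below 0 and the median was -0.22, but Creld2 alone was past the threshold, with 18.55 FPKM in E2KO, 59.65 FPKM in E1KO, 53.21 FPKM in DKO and 51.05 FPKM in WT. Here E1KO and DKO stood with WT and E2KO by itself was low. Hspa5, the main chaperone of the compartment, had 271.6 FPKM in E2KO, 436.67 FPKM in E1KO, 436.16 FPKM in DKO and 429.58 FPKM in WT. Hyou1, its helper chaperone, had 22.67 FPKM in E2KO and 46.18 FPKM in WT. At 8 months all 25 were above 0 with a median of 0.86. Of these, 10 were past the threshold, where 1.33% of all genes compared, short RNA genes included, were higher. Heat shock and chaperone genes followed at 2 months, with 14 of 17 below 0, a median of -0.15 and 1 past the threshold, Hspb1 (8.09 FPKM in E2KO and 22.06 FPKM in WT).

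Glucocorticoid targets split. Of 19 compared, 4 were lower (0.988% of all genes, 0.532% of the longer genes) and 1 was higher (0.533% and 0.161%). Mt1, Mt2 and Lcn2, given above, are among the lower. In E1KO against the same WT column 3 were lower, all of them shared with E2KO, and 5 were higher. Fkbp5, a chaperone partner of the glucocorticoid receptor, was the other, with 5.25 FPKM in E2KO, 23.37 FPKM in E1KO, 17.68 FPKM in DKO and 31.04 FPKM in WT. E2KO alone was low, 1.96 below E1KO. Tsc22d3, another target, went the other way, with 132.46 FPKM in E2KO, 161.43 FPKM in E1KO, 137.44 FPKM in DKO and 57.41 FPKM in WT, so WT alone was low. The list's median was 0.26, on the other side of 0 from its largest differences, and Tat, Pck1 and Igfbp1 were higher in E2KO by less than 1 (0.70, 0.44 and 0.82).

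Other longer genes that were lower in E2KO than in both WT and E1KO were few. Lars2, the mitochondrial leucyl-tRNA synthetase, had 78.24 FPKM in E2KO, 294.26 FPKM in E1KO, 74.09 FPKM in DKO and 402.95 FPKM in WT; at 8 months it had 1029.83 FPKM in E2KO and 118.62 FPKM in WT. BC002163 had 1.13 FPKM in E2KO, 47.87 FPKM in E1KO, 15.17 FPKM in DKO and 12.51 FPKM in WT, and at 8 months 2.06 FPKM in E2KO and 46.15 FPKM in WT. Eif4ebp3, a brake on translation initiation, had 35.31 FPKM in E2KO, 134.69 FPKM in E1KO, 94.75 FPKM in DKO and 194.41 FPKM in WT. Cyp2c40, a cytochrome P450, had 0.61 FPKM in E2KO, 14.99 FPKM in E1KO, 73.83 FPKM in DKO and 4.79 FPKM in WT, so here E2KO was low and the 2 Ezh1-deficient columns were above WT. Fabp5, a fatty acid carrier, had 58.06 FPKM in E2KO, 193.31 FPKM in E1KO, 307.35 FPKM in DKO and 122.26 FPKM in WT. The rest of this kind were Nlrp12, Amd1 and Pfkfb1, at differences of -1.23, -1.15 and -1.01. Socs2, a growth hormone target, was lower with 5.93 FPKM in E2KO, 9.92 FPKM in E1KO, 30.31 FPKM in DKO and 19.51 FPKM in WT; Onecut1, a hepatocyte transcription factor, had 3.3 FPKM in E2KO, 2.48 FPKM in E1KO, 4.33 FPKM in DKO and 8.61 FPKM in WT. Hmox1, the heme oxygenase, had 7.38 FPKM in E2KO, 8.43 FPKM in E1KO, 7.13 FPKM in DKO and 17.0 FPKM in WT, and the Polycomb target Tbx3 3.62 FPKM in E2KO, 3.28 FPKM in E1KO, 4.33 FPKM in DKO and 8.34 FPKM in WT.

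Outside the acute phase and metallothionein lists, the 21 lower genes shared with E1KO held genes of several kinds. Scara5, a ferritin receptor, had 1.64 FPKM in E2KO, 2.3 FPKM in E1KO, 0.98 FPKM in DKO and 9.82 FPKM in WT. B3galt1, a galactosyltransferase, had 3.82 FPKM in E2KO, 4.75 FPKM in E1KO, 2.35 FPKM in DKO and 16.2 FPKM in WT. Id3, an inhibitor of helix-loop-helix factors and a target of BMP signalling, had 28.56 FPKM in E2KO, 24.86 FPKM in E1KO, 30.56 FPKM in DKO and 73.31 FPKM in WT. In these 3 genes WT stood above the E2KO, E1KO and DKO values. Gfra1, a receptor for glial cell line-derived neurotrophic factor, had 16.68 FPKM in E2KO, 8.47 FPKM in E1KO, 8.27 FPKM in DKO and 35.57 FPKM in WT, so E2KO lay between. The chemokine gene Ccl6 had 2.01 FPKM in E2KO, 2.91 FPKM in E1KO, 1.83 FPKM in DKO and 6.98 FPKM in WT. Genes whose E1KO value lay less than 1 from both E2KO and WT included Pim1, a kinase induced by cytokines (3.78 FPKM in E2KO, 6.26 FPKM in E1KO, 3.84 FPKM in DKO and 10.6 FPKM in WT), Hes1, a Notch target (3.72 FPKM in E2KO, 6.15 FPKM in E1KO, 4.25 FPKM in DKO and 9.0 FPKM in WT), and Nrg4, a hormone of the EGF family (4.6 FPKM in E2KO, 9.9 FPKM in E1KO, 9.16 FPKM in DKO and 12.35 FPKM in WT). The called longer genes lay on many chromosomes, with at most 7 of 67 on any, chromosome 5, which holds 6.47% of the longer genes compared.

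Genes higher in E2KO than in both WT and E1KO numbered 8. Gdpd3, a phosphodiesterase of lysophospholipids, had 16.21 FPKM in E2KO, 0.20 FPKM in E1KO, 0.24 FPKM in DKO and 4.42 FPKM in WT; it had 10.2 FPKM in E2KO and 10.6 FPKM in WT at 8 months, and 0.13 FPKM in E2KO and 3.94 FPKM in WT after CCl4. Moxd1 had 10.61 FPKM in E2KO, 0.02 FPKM in E1KO, 0.02 FPKM in DKO and 3.82 FPKM in WT. In both genes E1KO and DKO were near 0 at 2 months, so the distance from E1KO comes from a low E1KO value as well. Moxd1 was also near 0 in columns that keep Ezh1, with 0.0 FPKM in E2KO and 0.03 FPKM in WT at 8 months. After CCl4 Moxd1 had 2.13 FPKM in E2KO, 1.15 FPKM in E1KO and 0.25 FPKM in WT. Gsta2, a glutathione transferase, had 23.85 FPKM in E2KO, 8.77 FPKM in E1KO, 13.68 FPKM in DKO and 9.01 FPKM in WT, and Clec2h 21.61 FPKM in E2KO, 4.76 FPKM in E1KO, 5.04 FPKM in DKO and 7.8 FPKM in WT. Cyp26a1, which degrades retinoic acid, had 7.01 FPKM in E2KO, 1.11 FPKM in E1KO, 1.12 FPKM in DKO and 2.68 FPKM in WT. Cib3, Gm10804 and LOC622167 made up the 8, at 1.19, 1.16 and 1.13. Genes higher in E2KO and in E1KO alike were Ccrn4l (21.96 FPKM in E2KO, 22.57 FPKM in E1KO and 7.26 FPKM in WT), Tsc22d3, Arl4d, Rasgef1b and the MHC class II genes H2-Eb1 and H2-Ab1, which present peptides to T cells. H2-Eb1 had 16.6 FPKM in E2KO, 23.21 FPKM in E1KO, 13.91 FPKM in DKO and 7.73 FPKM in WT, and H2-Ab1 27.91 FPKM in E2KO, 39.24 FPKM in E1KO, 21.53 FPKM in DKO and 13.45 FPKM in WT, which is just past the threshold at 1.00 and falls below it when columns are scaled differently.

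**Figure D5:**
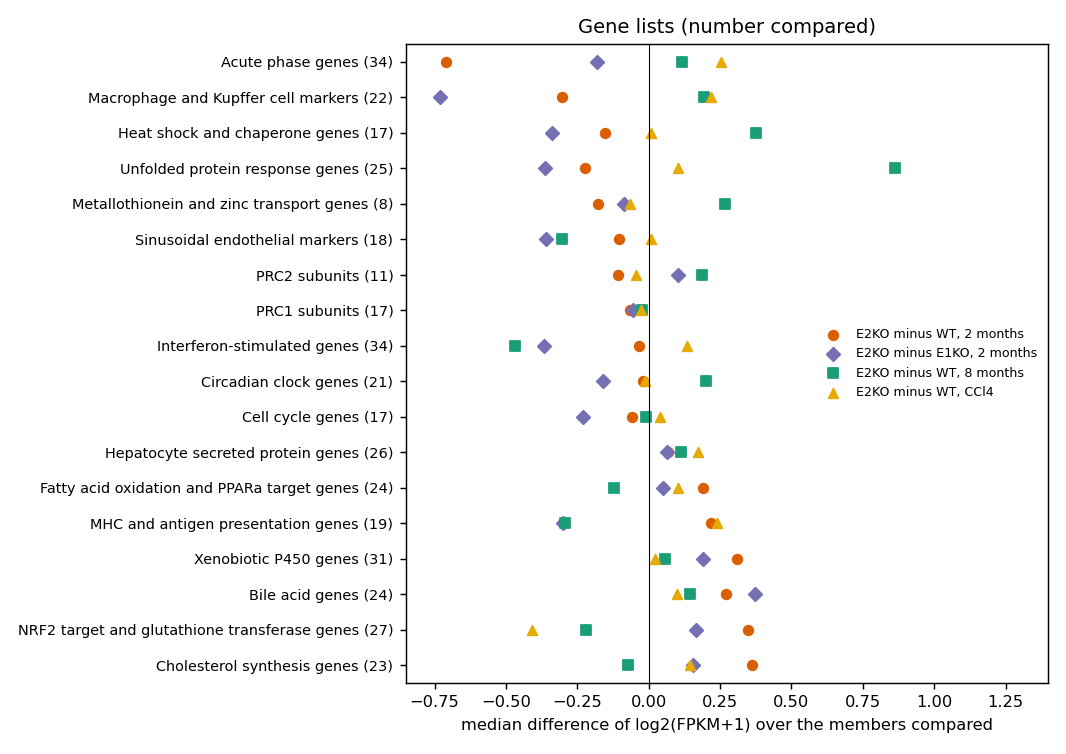
Median difference of log2(FPKM+1) over the members compared of 18 gene lists, with the number compared in brackets: E2KO minus WT at 2 months (circles), E2KO minus E1KO at 2 months (diamonds), E2KO minus WT at 8 months (squares) and after CCl4 (triangles). The acute phase list is the lowest at 2 months, at -0.71, and the cholesterol synthesis list the highest, at 0.36.

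Most genes of the lists of lipid and drug metabolism lay slightly above 0 in E2KO, and few members passed the threshold. Gsta2 was higher, and Cyp2c40 and Hmox1 were lower, as given above. Ugt2b37, of the UDP-glucuronosyltransferase and sulfotransferase list, was lower too (2.19 FPKM in E2KO and 6.62 FPKM in WT, with 17 of 22 members above 0 and a median of 0.26). Called genes outside these lists included Fabp5 and Cyp26a1, given above. Gm6484, named Angptl8 in RefSeq, was another, with 34.61 FPKM in E2KO, 35.94 FPKM in E1KO and 97.6 FPKM in WT. Of 23 cholesterol synthesis genes compared, 22 lay above 0 and none was past the threshold. Their median was 0.36, beside 0.01 over all genes compared and 51.2% of all genes above 0. Sc4mol, a sterol oxidase, had 74.05 FPKM in E2KO and 45.16 FPKM in WT. Of 31 xenobiotic P450 genes 26 were above 0 (median 0.31), of 27 NRF2 target and glutathione transferase genes 22 (median 0.35), of 24 bile acid genes 17 (median 0.27) and of 24 fatty acid oxidation genes 20 (median 0.19). In E1KO against the same WT column the medians were 0.22 for cholesterol synthesis (18 of 23 above 0), 0.16 for P450, 0.14 for the NRF2 list, -0.13 for bile acids and 0.10 for fatty acid oxidation, and for E2KO minus E1KO they were 0.15, 0.19, 0.17, 0.37 and 0.05 in the same order. At 8 months the medians were -0.07 for cholesterol synthesis, 0.06 for P450, -0.22 for the NRF2 list, 0.15 for bile acids and -0.12 for fatty acid oxidation, and after CCl4 they were 0.15, 0.02, -0.41, 0.10 and 0.10 in the same order.

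The lists in which PRC2 targets would be sought showed little in this pair. None of 39 Hox genes reached 1 FPKM in E2KO or WT, and their sum was 1.5 FPKM in E2KO and 1.54 FPKM in WT, against 8.94 FPKM in DKO. Of 63 transcription factors of development that Polycomb is known to hold silent, 7 were high enough to be compared and Tbx3, given above, was lower. Of 3 CDK inhibitors compared and of 2 fetal liver genes none was past the threshold. In the fetal list the median was -0.22 in E2KO against WT and 1.66 in DKO against WT. Of all 47 lists, 46 had a member compared, 17 had a called member and 29 had none; in these 29 the medians ran from -0.65, for the neutrophil list with 2 genes compared, to 0.39.

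Markers of other cell types were read from the same columns. Fewer cells of a type and less RNA per cell cannot be told apart in bulk tissue. Of 22 Kupffer cell and macrophage markers compared, 19 lay below 0 and none was past the threshold; the median was -0.30 and the 30 genes of the list summed to 290.81 FPKM in E2KO, 455.3 FPKM in E1KO and 334.09 FPKM in WT. Clec4f, which marks Kupffer cells, had 21.89 FPKM in E2KO, 40.02 FPKM in E1KO and 28.77 FPKM in WT. Sinusoidal endothelial markers summed to 96.43 FPKM in E2KO and 104.13 FPKM in WT, neutrophil markers to 5 FPKM in E2KO, with 3 of 13 listed at 0, and 8.46 FPKM in WT, with 2 listed at 0, and lymphocyte markers to 11.22 FPKM in E2KO and 9.28 FPKM in WT. Stellate cell and myofibroblast markers summed to 177.52 FPKM in E2KO and 166.01 FPKM in WT, with 12 of 17 compared above 0 and a median of 0.28. Cholangiocyte and progenitor markers summed to 503.63 FPKM in E2KO and 658.99 FPKM in WT. Of 10 compared, 7 lay below 0, the median was -0.31 and Onecut1, given above, was past the threshold. Skeletal muscle genes summed to 2.81 FPKM in E2KO and 2.56 FPKM in WT. Hepatocyte secreted protein genes were present at 62392.32 FPKM summed in E2KO and 54777.56 FPKM in WT over 26 genes, which is the tissue the labels give. Of 19 MHC and antigen presentation genes 16 lay above 0. The part of any of these cells in the acute phase difference was not tested.

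The 2-month differences were set beside those of the same genotypes at 8 months and after CCl4, which use other columns. E2KO against WT counted 273 genes at 8 months (2.7%, with 1.33% higher and 1.36% lower) and 82 after CCl4 (0.81%, with 0.375% higher and 0.435% lower). Of the 53 lower longer genes, 3 were lower and 7 higher at 8 months, and none was lower and 8 higher after CCl4. Of the 16 higher genes, none was higher and 2 were lower at 8 months, and 1 was higher and 2 were lower after CCl4. Across all 10122 genes the Spearman correlation of the 2-month difference was -0.25 with the 8-month difference and -0.01 with the CCl4 difference, values that describe genes and not replicates. The 3 genes lower at both 2 and 8 months were Saa1, Saa2 and BC002163.

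A fit over all 12 groups asked for E2KO effects common to the 3 conditions. Genotype and condition entered it as additive terms in limma, over genes of 1 FPKM or more in at least 2 columns, with 6 residual degrees of freedom. In it the column labelled 8m_E1KO stood apart: Ezh1 was 0.88 FPKM there against 0.07 FPKM and 0.2 FPKM in the other E1KO columns, and skeletal muscle genes summed to 515.18 FPKM against 2.56 to 5.04 FPKM in the other columns. None of 11394 genes was higher and none lower in E2KO at an adjusted p under 0.05 by limma (0% each). An unadjusted p under 0.05 was found for 155 genes, or 1.36%. This is a smaller share than the 0.05 that such a threshold passes when no gene differs. Without the column labelled 8m_E1KO the counts were 0 and 0 over 11371 genes, with 157 (1.38%) at an unadjusted p under 0.05. The fit takes as its spread the departure of the 12 values from additivity, which holds condition-specific genotype effects as well as noise.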

How the data were processed

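RNA of mouse liver was sequenced by the authors from 12 groups: 4 genotypes at 2 months of age, at 8 months of age and, after CCl4, at 3 months of age. Per the labels' protocols, libraries were made from total RNA with the TruSeq kit. The authors deposited 1 table of FPKM values of 22520 genes, to 2 decimals, with 1 column per group; the way the replicates were joined is not stated in the labels. Per the submitters' processing notes, the tools were TopHat, Cufflinks, CASAVA, HOMER, SICER and BWA, on mm9, with no version or role given. FPKM values hold no read counts, so the depth is unknown. The 9 ChIP-seq samples are not analysed here.

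Values were taken as log2(FPKM+1), with genes called at a difference of 1. The additive fit used limma 3.58.1 in R 4.3.3 (eBayes with a trend, Benjamini-Hochberg over all genes, two-sided). It was run on simulated data that were additive with independent noise. These held no condition-specific genotype effects, so the simulation does not check the fit where such effects occur. Gene classes and sequences came from RefSeq (GRCm38.p6), matched by symbol (10061 of 10122 genes). The genes and the 47 lists were chosen with earlier results of these data known, and the lists rest on textbook knowledge. Genes were named by rule (Ezh1 and Ezh2, the largest differences shared with or apart from E1KO, up to 5 called genes per list), and others after their values were seen. Alternatives were other pseudocounts (0.1 and 0.5), filters (none and 5 FPKM), scalings of the columns and a call at 1.5.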

Additional observations from a re-analysis of the deposited data

Results flagged for a closer look

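Several genes past the threshold in E2KO at 2 months were past it on the other side in another condition. Each condition has 1 value per group, so these differences between conditions were not tested. Given as E2KO minus WT on the log2(FPKM+1) scale, the 8-month values of genes lower at 2 months were 2.17 for Mt1, 1.52 for Fkbp5, 3.11 for Lars2, 2.43 for Creld2, 1.11 for Socs2, 2.02 for Lbp and 1.26 for Ung. The CCl4 values of genes lower at 2 months were 1.22 for Lcn2, 2.39 for Saa3, 2.03 for Saa2, 1.61 for Saa1, 1.13 for BC002163, 1.02 for Lars2, 1.11 for Crybb3 and 2.11 for Orm2. Lars2 was thus on the other side in both conditions.

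Genes higher at 2 months and on the other side elsewhere were LOC622167 (-1.51) and Sucnr1 (-1.11) at 8 months, and Gdpd3 (-2.13) and Gsta2 (-1.20) after CCl4.

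Among the short RNA genes, which are listed at 0 in many columns, 14 past the threshold at 2 months were past it on the other side at 8 months and 10 after CCl4. Of those named by rule, the 8-month values were -7.85 for Bc1, -4.64 for Snord1b, 3.54 for Snord8, 3.92 for Mir3058 and 1.23 for Mir1898. The CCl4 values were -8.54 for Snord65, -9.47 for Snord42b, -4.79 for Mir704 and -3.58 for Mir3061.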

How the results depend on the processing

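The reported counts were 54 genes higher and 100 lower, with 23 higher and 54 lower shared with E1KO and 28 higher and 32 lower that stand apart from it. With a pseudocount of 0.1 FPKM there were 87 higher and 154 lower, and 44 higher and 53 lower apart from E1KO. At a call of 1.5 there were 61 lower, with 35 lower shared and 16 lower apart. Without short RNA genes, an alternative chosen after seeing the data, the counts were 16 higher and 53 lower, 6 and 21 shared, and 8 and 15 apart. With E1KO in place of WT, also chosen after seeing the data, 135 were higher and 144 lower among genes of 1 FPKM or more in E2KO or E1KO, beside 135 and 110 among the 10122 genes that pass in E2KO or WT. The other filters, scalings and the pseudocount of 0.5 FPKM moved no count by over 1.5 times. The limma counts stayed at 0 in all 9 alternatives, with 92 to 333 genes at an unadjusted p under 0.05. As shares of the genes tested these ran from 0.824% to 2.69%. Of 67 named genes past the threshold, H2-Ab1 fell short when columns were scaled to a median ratio of 1 (0.99), and H2-Ab1 (0.93) and H2-Eb1 (0.96) when scaled to a total of 1000000; no named gene changed direction. Of 46 list medians, 11 moved by 0.1 or more with no filter, 11 with a filter of 5 FPKM, 5 with columns scaled to a total of 1000000, 3 at a pseudocount of 0.1 FPKM and 1 at 0.5 FPKM; the glucocorticoid median was 0.05 and 0.38 with no filter and a filter of 5 FPKM, the fetal one 0.00 and -0.68, the unfolded protein response one -0.34 at 5 FPKM and the macrophage one -0.41 under total scaling. The promoter comparison between called and other genes was void, since a promoter was found for 40 of 53 lower genes. No paired analysis was possible because the columns carry no replicate numbers. The limma fits hold condition as a term. With the WT and E2KO columns alone 0 of 10879 genes were called, with 203 (1.87%) at an unadjusted p under 0.05. The cause of these shifts was not tested.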
